A study of Mus musculus with 40 samples.

Results

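Hairpin shMyh9#2 against Myh9 was compared with the scrambled hairpin shNC in YUMM2.1 cells that carry ectopic WT-Bmal1, using the 4 libraries with these labels out of the 40 of the series. YUMM2.1 is a mouse melanoma line whose alterations include Braf V600E, loss of 1 copy of Cdkn2a and stabilized β-catenin, and it keeps its own Bmal1. A lentivirus added WT-Bmal1 and the cells were sorted by GFP. A lentiviral hairpin followed, and puromycin selected the transduced cells. WT shNC and WT shMyh9#2 cells share all of this and differ in the hairpin. Whether the 2 libraries of a group came from separate transductions or cultures is not given in the sources used here. The p-values therefore measure only the spread between libraries of a group, which may be less than that between independent cultures. That spread was estimated over all 18 hairpin libraries of the series. For comparison, the same hairpin pair was read in cells with the empty vector (EV) and in cells with dHLH-Bmal1, which lacks the DNA-binding helix-loop-helix domain. A further hairpin, shMyh9#4, was read in WT cells. The comparison asks what loss of Myh9 does to transcripts in cells that carry the WT-Bmal1 construct.

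Myh9 encodes the heavy chain of non-muscle myosin IIA, the motor that forms bipolar filaments, pulls on actin and so sets contractility, adhesion and cell shape. The state of actin also reaches the nucleus. Monomeric G-actin holds the coactivators MRTF-A and MRTF-B away from the transcription factor SRF, which binds the CArG box of cytoskeletal genes. Bmal1, listed in the annotation as Arntl, is the core clock factor that binds E-boxes together with Clock. Melanoma cells move between a melanocytic state marked by Sox10 and Mitf and a dedifferentiated, mesenchymal state marked by Sox9, collagens and other matrix proteins.

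The libraries were made with QuantSeq, which reads the poly(A) end of each transcript, so longer transcripts do not yield more counts. The WT shNC libraries held 7587633 and 8886824 counts and the WT shMyh9#2 libraries 17485144 and 12783593. Depth thus moved with the group. Levels are given as CPM, counts scaled by TMM to a library of 1000000, and 1 count was worth 0.0574 to 0.133 CPM in these 4 libraries. Across genes, log2 CPM correlated at 0.971 between the shNC libraries, 0.977 between the shMyh9#2 libraries and 0.961 to 0.965 between groups. Sox10, Mitf and S100b were present, but 8 of 30 melanocytic genes had 0 counts in all 4 libraries, the pigment genes Tyrp1 and Mlana among them. Immune markers summed to 1.15 to 2.65 CPM in shNC and 0.919 to 1.102 CPM in shMyh9#2, with Ptprc, Cd3e, Adgre1, Itgax and Nkg7 at 0. Keratinocyte markers were at 0 except for Krt15 with 3 counts in 1 shNC library. The endothelial list summed to 20.3 to 21.2 CPM in shNC and 22.4 to 25.6 CPM in shMyh9#2, nearly all of it Cdh5 and Pecam1, while Tek and Tie1 were at 0. Of the 106 genes chosen by the naming rule, 31 share exon bases with another annotated gene, and the strand of counting is not given in the sources used here, so their reads cannot be told apart from those of the neighbour. Those described with values are Myh14, Arntl, Fosl1, Jun, Junb, Nlrp2, Cacnb2, Tgm2, Ptgs1, Pdlim7, Tnc, Wnt5a, Timp3, Pfkp, Car9, Tcf7l1 and Lrrc17.

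Myh9 transcripts were 4.11-fold lower with shMyh9#2. Myh9 (ENSMUSG00000022443; chromosome 15, 77760587 to 77842175; minus strand, GRCm38) had 969 and 919 CPM with shNC and 226 and 233 CPM with shMyh9#2 (log2 fold change -2.04, SE 0.097, edgeR adjusted p = 1.3e-09), and the groups did not overlap. The same hairpin left 223 and 241 CPM in EV cells and 283 and 256 CPM in dHLH cells. EV cells started lower, from 682 and 645 CPM with shNC. The log2 fold change was -2.04 in WT and -1.51 in EV cells (difference -0.52, SE 0.13, edgeR adjusted p = 0.030). That call was lost whichever of the 8 libraries was left out (adjusted p 0.063 to 0.14). Hairpin shMyh9#4 left 528 and 461 CPM in WT cells, above the level with shMyh9#2 (shMyh9#2 against shMyh9#4, log2 fold change -1.10, SE 0.095, edgeR adjusted p = 2.4e-06). Of the other non-muscle heavy chains, Myh10 (myosin IIB) had 90.9 and 64.8 CPM with shNC and 109 and 109.9 CPM with shMyh9#2 and did not pass (edgeR adjusted p = 0.057). Its shNC libraries differed from each other, and the adjusted p was 0.47 without shNC replicate 2 and 0.012 without shNC replicate 1. Myh14 (myosin IIC) was rare, with 2.39 and 1.497 CPM with shNC and 0.861 and 0.708 CPM with shMyh9#2 (edgeR adjusted p = 0.20).

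**Figure D1:**
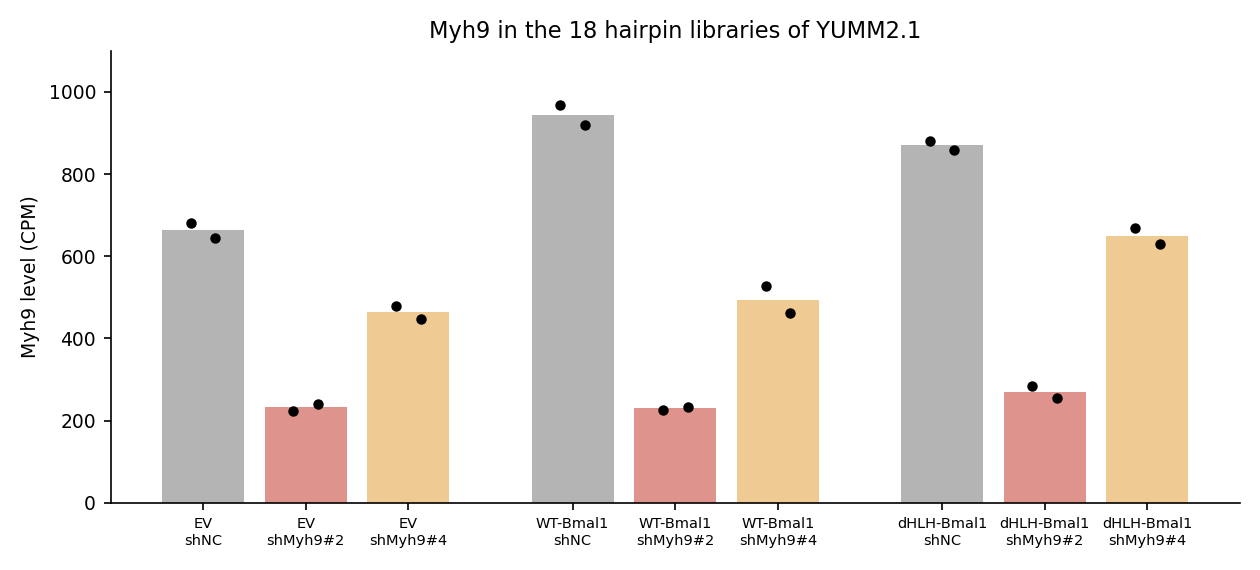
Myh9 level in CPM (y axis) in the 18 hairpin libraries of YUMM2.1, grouped by construct (EV, WT-Bmal1, dHLH-Bmal1) and hairpin; points are libraries and bars their mean (n = 2). The 3 shMyh9#2 groups sit between 223 and 283 CPM, below every shMyh9#4 and shNC library.

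Beyond the target, transcripts changed in nearly equal numbers in each direction. Of 14848 genes that passed the filter on low counts, 707 (4.76%) were called with edgeR at an adjusted p below 0.05. With shMyh9#2, 349 of them (2.35%) were higher and 358 (2.41%) were lower. At an unadjusted p below 0.05 there were 2721. The median called gene was 0.88 higher or 0.81 lower on the log2 scale, and 151 of the higher and 133 of the lower genes moved by at least 1. The libraries of the groups did not overlap for any called gene, which was so for 51.1% of all genes tested. Where groups do not overlap, leaving out 1 library cannot reverse the direction, so a kept direction is no further evidence. The number of calls depended on having both libraries of each group. Without shMyh9#2 replicate 1 or replicate 2 there were 222 and 229 calls, and without shNC replicate 1 or replicate 2 there were 303 and 253. All 707 genes kept their direction in these 4 fits, and 141 were called in each of them, 72 higher and 69 lower. Thinning every deeper library to the smallest total of these 4, with shallower libraries of other groups left as they were, gave 617 calls, 302 higher and 315 lower. For the genes below, "robust" means called in all 4 fits with 1 library left out. For any other called gene the highest adjusted p is given, with the library whose omission gave it.

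**Figure D2:**
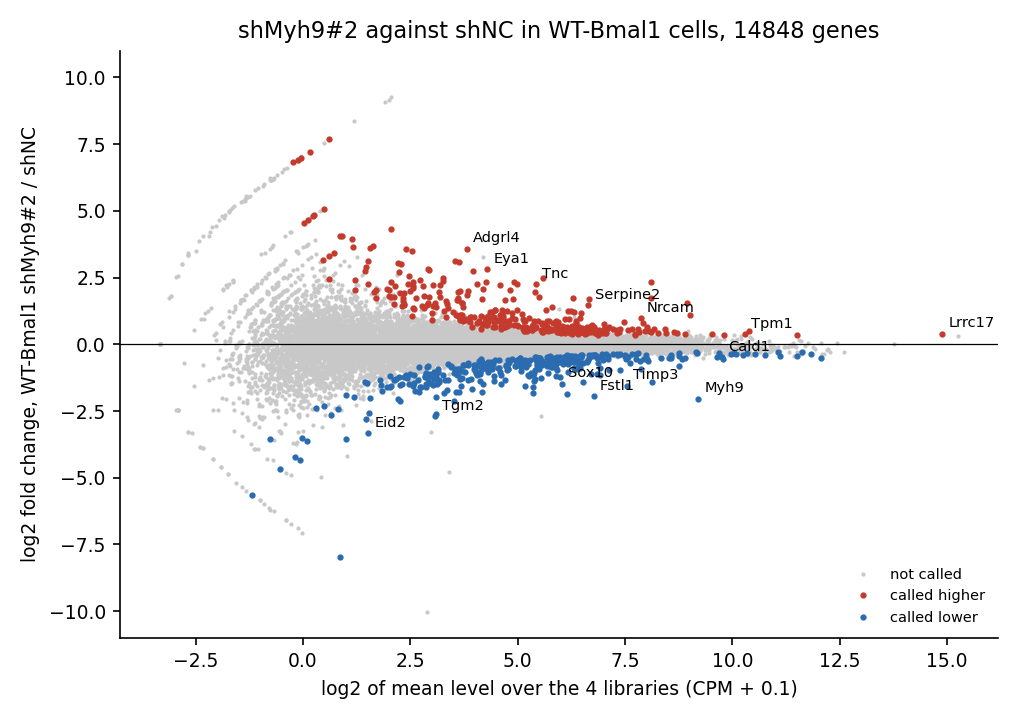
Log2 fold change of shMyh9#2 over shNC in WT-Bmal1 cells (y axis) against the log2 mean level over the 4 libraries in CPM + 0.1 (x axis), for 14848 genes. Red points are the 349 genes called higher and blue points the 358 called lower; Myh9 lies apart from the other abundant genes.

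The largest increases were in genes that were nearly silent with shNC. The naming rule picks large changes without overlap, so clear separation of these genes is no further evidence. Adgrl4, an adhesion G protein-coupled receptor best known from endothelium (ENSMUSG00000039167; chromosome 3, 151437887 to 151545086), had 1.59 and 2.65 CPM with shNC and 23.8 and 28.1 CPM with shMyh9#2 (log2 fold change 3.58, SE 0.25, edgeR adjusted p = 8.9e-08). Tnfrsf9, the costimulatory receptor 4-1BB, had 1.99 and 2.76 CPM with shNC and 20.96 and 20.6 CPM with shMyh9#2 (log2 fold change 3.11, SE 0.36, edgeR adjusted p = 3.7e-05). Eya1, a transcriptional coactivator and phosphatase of organ development, had 4.37 and 5.298 CPM with shNC and 34.9 and 33.6 CPM with shMyh9#2 (log2 fold change 2.82, SE 0.34, edgeR adjusted p = 6.2e-05). In all 3 the shMyh9#2 libraries lay several times above the shNC libraries. The same held for Trpa1, a cation channel of sensory neurons, with 2.25 and 2.88 CPM with shNC and 23.1 and 20.9 CPM with shMyh9#2 (log2 fold change 3.08, SE 0.39, edgeR adjusted p = 0.00012). Cacnb2, a calcium channel subunit, had 0.795 and 1.04 CPM with shNC and 12 and 9.21 CPM with shMyh9#2 (log2 fold change 3.51, SE 0.35, edgeR adjusted p = 7.5e-06). Khdrbs3, an RNA-binding protein, and Bcl11b, a transcription factor of T cell development, rose by 3.55 and 2.80 on the log2 scale. These 7 genes were robust, as was Nlrp2, a member of the NOD-like receptor family. Nlrp2 had 6 counts in the shNC libraries together and 244 in the shMyh9#2 libraries, a depth-corrected ratio of 21.9 with an exact 95% counting interval of 9.92 to 60.3 (edgeR adjusted p = 0.00019). Khdrbs2, Ppp2r2b, Blnk and Pced1b were called higher from under 2 CPM with shNC and were not robust. The highest edgeR adjusted p without 1 library was 0.20 for Khdrbs2 (without shMyh9#2 replicate 2), 0.069 for Ppp2r2b (without shNC replicate 1), 0.16 for Blnk (without shNC replicate 1) and 0.053 for Pced1b (without shNC replicate 1). Adgrl4 is known from endothelium and Tnfrsf9 and Blnk from lymphocytes. Of the endothelial markers, Cdh5 had 12.6 and 11.4 CPM with shNC and 16.7 and 19.3 CPM with shMyh9#2 and Pecam1 had 8.09 and 8.87 CPM with shNC and 5.28 and 6.297 CPM with shMyh9#2, and the part of other cell types in these values was not tested.

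The genes that fell furthest included several that were well expressed with shNC. Fstl1, a secreted glycoprotein related to follistatin (ENSMUSG00000022816; chromosome 16, 37776873 to 37836514), had 160.1 and 186 CPM with shNC and 43.003 and 46.9 CPM with shMyh9#2 (log2 fold change -1.95, SE 0.12, edgeR adjusted p = 3.5e-08). Ptgs1, the constitutive cyclooxygenase, had 103 and 121 CPM with shNC and 31.4 and 29.8 CPM with shMyh9#2 (log2 fold change -1.87, SE 0.12, edgeR adjusted p = 6.2e-08). Pkp1, a desmosomal plakophilin, had 61.4 and 66.7 CPM with shNC and 19.5 and 16.9 CPM with shMyh9#2 (log2 fold change -1.81, SE 0.14, edgeR adjusted p = 2.9e-07). In each of the 3 the groups stood further apart than the libraries within a group, which the naming rule favours and which is no further evidence. At lower levels, Tgm2, the tissue transglutaminase that crosslinks matrix proteins, had 17.8 and 11.4 CPM with shNC and 2.58 and 1.81 CPM with shMyh9#2 (log2 fold change -2.71, SE 0.41, edgeR adjusted p = 0.00058). Eid2, an inhibitor of differentiation, had 3.84 and 6.22 CPM with shNC and 0.632 and 0.315 CPM with shMyh9#2 (log2 fold change -3.33, SE 0.45, edgeR adjusted p = 0.00019). Rnf144a, an E3 ubiquitin ligase, and Moxd1, a monooxygenase-like protein, fell by 2.60 and 1.97. These 7 genes were robust. Rap1gap2, a GTPase-activating protein for Rap1, fell by 1.84 and had an adjusted p of 0.069 without shMyh9#2 replicate 1.

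**Figure D3:**
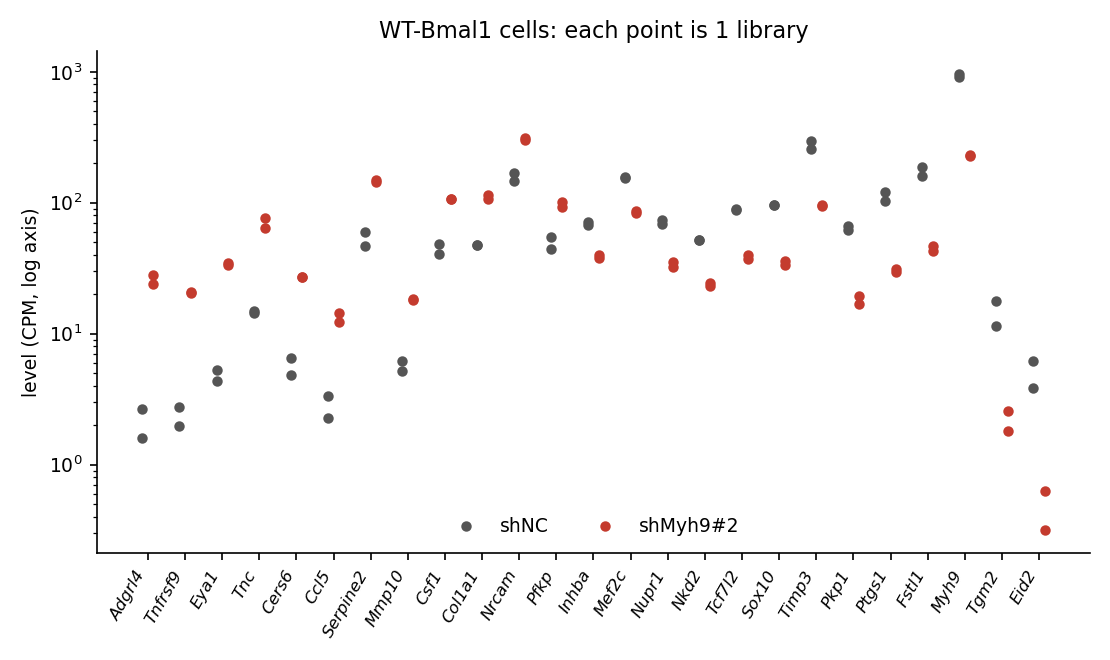
Level in CPM on a log axis (y axis) of 25 named genes (x axis) in the 2 shNC (grey) and 2 shMyh9#2 (red) libraries of WT-Bmal1 cells, 1 point per library. All genes drawn were called, and as for every called gene the colours do not overlap.

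Besides Myh9 itself, Cald1 and Rock1 were called in the myosin II list. All 15 genes of the list were tested. Of these, 2 fell (Myh9 and Cald1) and 1 rose (Rock1), 20% of the list against 4.76% of all genes tested. The median log2 fold change was 0.049 against 0.00059 over all genes. Cald1, the actin-binding protein caldesmon, had 1005 and 1006 CPM with shNC and 704 and 731 CPM with shMyh9#2 (log2 fold change -0.49, SE 0.085, edgeR adjusted p = 0.0024). Rock1, a kinase that activates myosin light chain, had 221 and 197 CPM with shNC and 286 and 299 CPM with shMyh9#2 (log2 fold change 0.48, SE 0.10, edgeR adjusted p = 0.010). When single libraries were left out, the edgeR adjusted p reached 0.050 for Cald1 (without shMyh9#2 replicate 1) and 0.12 for Rock1 (without shNC replicate 2).

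Of the MRTF-SRF targets, 2 of 33 tested rose (Tpm1 and Cnn2) and 1 fell (Pdlim7), and the median was 0.03. The calls were 9.09% of the list, against 4.76% of all genes tested. Tpm1 (tropomyosin) had 1115 and 1052 CPM with shNC and 1423 and 1397 CPM with shMyh9#2 (log2 fold change 0.38, SE 0.077, edgeR adjusted p = 0.0071). Cnn2 (calponin) had 98.8 and 87.5 CPM with shNC and 132 and 135 CPM with shMyh9#2 (log2 fold change 0.52, SE 0.13, edgeR adjusted p = 0.031). Pdlim7 had 88.3 and 88.8 CPM with shNC and 64.1 and 59.5 CPM with shMyh9#2 (log2 fold change -0.52, SE 0.12, edgeR adjusted p = 0.016). All 3 changes were under 1.5-fold and none was robust. Omission of 1 library raised the edgeR adjusted p to 0.073 for Tpm1 (without shNC replicate 2), 0.27 for Cnn2 (without shNC replicate 2) and 0.19 for Pdlim7 (without shMyh9#2 replicate 2). Actb (β-actin) had 13937 and 13587 CPM with shNC and 13458 and 14351 CPM with shMyh9#2 (edgeR adjusted p = 0.95), and Vcl (vinculin) had 103 and 105 CPM with shNC and 93.8 and 107 CPM with shMyh9#2 (edgeR adjusted p = 0.87). Actn1 (α-actinin) had 317 and 317 CPM with shNC and 405 and 401 CPM with shMyh9#2 and did not pass (edgeR adjusted p = 0.099). The regulators did not pass either, with log2 fold changes of -0.062 for Srf, -0.35 for Mrtfa and -0.14 for Mrtfb (edgeR adjusted p = 0.91, 0.39 and 0.59). Actb, Vcl and Actn1 were chosen after their values were seen.

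Among AP-1 and ATF factors, 1 of 17 tested rose (Atf6, a sensor of endoplasmic reticulum stress) and 2 fell (Junb and Fosl2), and the median was -0.11. The calls were 17.6% of the list, against 4.76% of all genes tested. Junb had 31.6 and 33.2 CPM with shNC and 15.2 and 16.5 CPM with shMyh9#2 (log2 fold change -1.03, SE 0.19, edgeR adjusted p = 0.0033). Fosl2 had 109.5 and 117 CPM with shNC and 66.8 and 73.7 CPM with shMyh9#2 (log2 fold change -0.69, SE 0.13, edgeR adjusted p = 0.0043). With a library left out the edgeR adjusted p rose to 0.065 for Junb (without shMyh9#2 replicate 1), 0.089 for Fosl2 (without shMyh9#2 replicate 1) and 0.39 for Atf6 (without shMyh9#2 replicate 1). Fosl1 lay on the other side without passing, with 34.5 and 25.5 CPM with shNC and 53.5 and 47.3 CPM with shMyh9#2 (log2 fold change 0.75, SE 0.24, edgeR adjusted p = 0.081). Jun was level, with 173 and 150.1 CPM with shNC and 167 and 164 CPM with shMyh9#2 (edgeR adjusted p = 0.92). Jund, Atf3, Atf4 and Fos did not pass (edgeR adjusted p = 0.070, 0.53, 0.73 and 0.68), and Fos was at 0.928 and 1.15 CPM with shNC.

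Since SRF, AP-1 and Bmal1 each bind a known sequence, promoters were searched for the CArG box, the AP-1 motif TGANTCA and the E-box CACGTG. Each promoter ran from 250 bases before to 50 bases after the start, in RefSeq sequences of GRCm38.p6, which were available for 10044 of the genes tested, 237 of those called higher and 258 of those called lower. The 3 motifs read the same on both strands, and none contains another. A CArG box was present for 1.27% of higher, 1.94% of lower and 1.57% of all genes tested. The AP-1 motif was present for 10.1%, 7.75% and 6.45% in the same order, and the E-box for 13.1%, 6.98% and 11.7%. These shares are a description without a test. A selection of the sites found upstream of named genes is shown with the motif in capitals, 5′ to 3′ on the strand of the gene. The E-boxes and the AP-1 motifs of Ddit3, Mrtfb and Ltbp3 are not shown. The CArG boxes of Cnn2, Srf and Rap1gap2 come first, and the AP-1 motifs of Mmp10, Tnfrsf9, Car9, Cald1 and Mef2c follow.
Cnn2 (chr10:79988534-79988563, plus strand): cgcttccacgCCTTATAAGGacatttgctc
Srf (chr17:46556225-46556254, minus strand): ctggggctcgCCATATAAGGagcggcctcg
Srf (chr17:46556205-46556234, minus strand): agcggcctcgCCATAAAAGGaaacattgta
Rap1gap2 (chr11:74559179-74559208, minus strand): ctgtgtggtgCCTTTTTTGGctttagcaag
Mmp10 (chr9:7502269-7502295, plus strand): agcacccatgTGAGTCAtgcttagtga
Tnfrsf9 (chr4:150927974-150927998, plus strand): cctgctcagtTGAGTCAcaggtcct
Car9 (chr4:43506939-43506965, plus strand): aagggcactgTGAGTCAgcctgctccc
Cald1 (chr6:34709237-34709263, plus strand): ttgatttctcTGAGTCAagcttataaa
Mef2c (chr13:83573460-83573486, plus strand): acaagtatttTGAATCAaggtctgtag
Genes of both directions are among them. Cnn2, Mmp10, Tnfrsf9 and Car9 were higher with shMyh9#2, Rap1gap2, Cald1 and Mef2c were lower, and Srf was not called. A match in letters is not a measurement of binding.

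Genes of the mesenchymal state and the extracellular matrix moved in both directions. Of 37 mesenchymal genes tested, 5 rose and 3 fell (21.6% called, against 4.76% of all genes), with a median of 0.06. Tnc, the matrix glycoprotein tenascin-C, had 14.98 and 14.4 CPM with shNC and 64.3 and 77.1 CPM with shMyh9#2 (log2 fold change 2.26, SE 0.16, edgeR adjusted p = 7.8e-08). Col1a1, the α1 chain of type I collagen (ENSMUSG00000001506; chromosome 11, 94936224 to 94953042), had 47.6 and 47.5 CPM with shNC and 107 and 114 CPM with shMyh9#2 (log2 fold change 1.22, SE 0.12, edgeR adjusted p = 4.8e-06). Its partner chain Col1a2 had 16.97 and 10.8 CPM with shNC and 51.2 and 38.5 CPM with shMyh9#2 (log2 fold change 1.70, SE 0.33, edgeR adjusted p = 0.0049). Both collagen chains thus rose together, although the shNC libraries of Col1a2 differed from each other. The transcription factors Lmo1 and Prrx2 rose by 1.12 and 1.20. Wnt5a, a non-canonical Wnt ligand, had 5.17 and 10.1 CPM with shNC and 1.55 and 1.97 CPM with shMyh9#2 (log2 fold change -2.13, SE 0.41, edgeR adjusted p = 0.0047). The matrix proteins Tgfbi and Thbs2 fell by 0.77 and 0.60. Sox9, which marks the dedifferentiated state, had 309 and 356 CPM with shNC and 396 and 391.8 CPM with shMyh9#2 and did not pass (log2 fold change 0.24, SE 0.10, edgeR adjusted p = 0.22). Tnc and Col1a1 were robust. The highest edgeR adjusted p without 1 library was 0.11 for Col1a2 (without shNC replicate 2), 0.12 for Wnt5a (without shNC replicate 2), 0.19 for Tgfbi (without shMyh9#2 replicate 2), 0.095 for Thbs2 (without shMyh9#2 replicate 2), 0.20 for Lmo1 (without shNC replicate 1) and 0.18 for Prrx2 (without shNC replicate 2).

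Proteases and their inhibitors had the most calls of the 21 lists, with 3 of 26 tested higher and 7 lower and a median of -0.012. The calls were 38.5% of the list, against 4.76% of all genes tested. Timp3, the matrix-bound inhibitor of metalloproteinases (ENSMUSG00000020044; chromosome 10, 86300372 to 86349506), had 256 and 297 CPM with shNC and 95.4 and 94.3 CPM with shMyh9#2 (log2 fold change -1.55, SE 0.10, edgeR adjusted p = 6.3e-08). Mmp2, gelatinase A, had 145 and 140.4 CPM with shNC and 71.3 and 62.2 CPM with shMyh9#2 (log2 fold change -1.10, edgeR adjusted p = 0.00013). A protease and an inhibitor of it thus fell together. The protease Adamts1 fell by 0.87, and Adam12, Mmp15 and Mmp17 by 2.03, 0.84 and 0.92. On the higher side, the inhibitor Serpine2 (protease nexin-1) had 47.1 and 59.5 CPM with shNC and 149 and 144 CPM with shMyh9#2 (log2 fold change 1.46, SE 0.15, edgeR adjusted p = 7.6e-06). Mmp10 (stromelysin 2) had 6.23 and 5.18 CPM with shNC and 18.4 and 18.1 CPM with shMyh9#2 (log2 fold change 1.68, SE 0.27, edgeR adjusted p = 0.0013). Mmp9 (gelatinase B) had 0.663 and 2.42 CPM with shNC and 8.78 and 9.92 CPM with shMyh9#2 (log2 fold change 2.56, SE 0.52, edgeR adjusted p = 0.0085). Timp3, Mmp2, Adamts1, Serpine2 and Mmp10 were robust. When single libraries were left out, the edgeR adjusted p reached 0.053 for Adam12 (without shMyh9#2 replicate 2), 0.093 for Mmp9 (without shNC replicate 1), 0.44 for Mmp15 (without shMyh9#2 replicate 1) and 0.13 for Mmp17 (without shMyh9#2 replicate 2).

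Of 28 integrin and focal adhesion genes tested, 4 fell and 1 rose (17.9% called, against 4.76% of all genes). The integrin chain Itgb3 had 10.5 and 13.5 CPM with shNC and 3.67 and 4.64 CPM with shMyh9#2 (log2 fold change -1.54, SE 0.28, edgeR adjusted p = 0.0033). Itga8, another integrin chain, fell by 0.81, the laminin chain Lamb2 by 0.58 and Tns1, which links integrins to actin, by 0.60. Itgb4, the partner of Itga6 in hemidesmosomes, rose by 1.45. None of the 5 was robust. Omission of 1 library raised the edgeR adjusted p to 0.072 for Itgb3 (without shMyh9#2 replicate 1), 0.20 for Itga8 (without shNC replicate 2), 0.32 for Lamb2 (without shNC replicate 2), 0.15 for Tns1 (without shMyh9#2 replicate 2) and 0.22 for Itgb4 (without shNC replicate 2).

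Sox10, the transcription factor that marks the melanocytic lineage (ENSMUSG00000033006; chromosome 15, 79154908 to 79165240), fell. It had 96.2 and 96.8 CPM with shNC and 33.7 and 35.7 CPM with shMyh9#2 (log2 fold change -1.48, SE 0.11, edgeR adjusted p = 2.4e-07), with nearly equal libraries within each group, and it was robust. Erbb3, a receptor tyrosine kinase of the same lineage, had 6.496 and 13.1 CPM with shNC and 3.16 and 3.31 CPM with shMyh9#2 (log2 fold change -1.61, SE 0.28, edgeR adjusted p = 0.0020). Its shNC libraries differed from each other, and the adjusted p was 0.096 without shNC replicate 2. These were the 2 calls among 16 melanocytic genes tested (12.5%, against 4.76% of all genes). Their median was -0.22, or -0.15 with 2 genes of at most 3 counts set at their bound. Mitf, the master regulator of pigment genes, had 20.8 and 17.9 CPM with shNC and 20.6 and 20.5 CPM with shMyh9#2 and did not pass (edgeR adjusted p = 0.88). In the neural crest list 3 of 20 tested genes fell and 1 rose (20% called, against 4.76% of all genes). Mef2c, a transcription factor of neural crest and muscle, had 154 and 158 CPM with shNC and 82.8 and 86.6 CPM with shMyh9#2 (log2 fold change -0.88, SE 0.10, edgeR adjusted p = 3.7e-05). The adhesion molecule Nrcam had 146 and 169 CPM with shNC and 302 and 315 CPM with shMyh9#2 (log2 fold change 0.97, SE 0.11, edgeR adjusted p = 2.5e-05). Both were robust. Ngfr, the low-affinity nerve growth factor receptor, fell by 0.61 and the transcription factor Sox6 by 0.48. With a library left out the edgeR adjusted p rose to 0.11 for Ngfr (without shMyh9#2 replicate 1) and 0.25 for Sox6 (without shMyh9#2 replicate 2).

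Genes of the Wnt, TGF-β and YAP lists were called only as lower. In the Wnt list 4 of 14 tested genes fell (28.6%, against 2.41% of all genes), with a median of -0.20. Tcf7l2, a DNA-binding partner of β-catenin, had 89.5 and 88.6 CPM with shNC and 37.1 and 39.8 CPM with shMyh9#2 (log2 fold change -1.21, SE 0.12, edgeR adjusted p = 4.8e-06). Its paralog Tcf7l1 had 45.5 and 48.8 CPM with shNC and 23.9 and 28.8 CPM with shMyh9#2 (log2 fold change -0.84, SE 0.15, edgeR adjusted p = 0.0021). Nkd2, an inhibitor of the pathway, had 52.4 and 51.9 CPM with shNC and 24.2 and 23.2 CPM with shMyh9#2 (log2 fold change -1.13, SE 0.16, edgeR adjusted p = 0.00031). Factors and inhibitors of the pathway thus fell together. Dkk2, a secreted modulator, fell by 0.70. Tcf7l2, Nkd2 and Dkk2 were robust, while Tcf7l1 had an adjusted p of 0.063 without shMyh9#2 replicate 1. Of 26 TGF-β and BMP genes tested, 3 fell (11.5%, against 2.41% of all genes). Inhba, which forms activin A, had 68.1 and 71.9 CPM with shNC and 37.6 and 39.99 CPM with shMyh9#2 (log2 fold change -0.85, SE 0.12, edgeR adjusted p = 0.00023) and was robust. Skil, a corepressor of Smads, and Ltbp3, a binding protein of latent TGF-β, fell by 0.66 and 0.49. Of 23 YAP-TEAD genes tested, 3 fell (13.0%, against 2.41% of all genes). They were the LIM protein Ajuba (-0.88), the Hippo scaffold Wwc1 (-0.87) and the RNA-binding protein Rbms3 (-0.45). The highest edgeR adjusted p without 1 library was 0.28 for Skil (without shNC replicate 2), 0.23 for Ltbp3 (without shMyh9#2 replicate 1), 0.25 for Ajuba (without shNC replicate 2), 0.074 for Wwc1 (without shMyh9#2 replicate 2) and 0.28 for Rbms3 (without shMyh9#2 replicate 2).

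Of 38 hypoxia and glycolysis genes tested, 4 were called higher (10.5%, against 2.35% of all genes) and 34 were not called. The median was 0.075, and 24 had a fitted log2 fold change above 0. Summed over the list, levels were 14942 and 16242 CPM with shNC and 14251 and 14387 CPM with shMyh9#2. Pfkp, the platelet-type phosphofructokinase, had 44.7 and 54.7 CPM with shNC and 100.5 and 93.2 CPM with shMyh9#2 (log2 fold change 0.96, SE 0.15, edgeR adjusted p = 0.00083) and was robust. Car9, a carbonic anhydrase induced in hypoxia, had 3.84 and 2.53 CPM with shNC and 17.2 and 12.6 CPM with shMyh9#2 (log2 fold change 2.23, SE 0.41, edgeR adjusted p = 0.0036). Pfkfb3, which makes an activator of phosphofructokinase, had 2.78 and 1.61 CPM with shNC and 5.11 and 7.399 CPM with shMyh9#2 (log2 fold change 1.51, SE 0.39, edgeR adjusted p = 0.031). Hif1a, the hypoxia-inducible factor itself, rose by 0.57. When single libraries were left out, the edgeR adjusted p reached 0.080 for Car9 (without shNC replicate 2), 0.29 for Pfkfb3 (without shNC replicate 2) and 0.065 for Hif1a (without shNC replicate 2). Of the secreted cytokines, 2 of 17 tested rose (11.8%, against 2.35% of all genes) and 0 fell. Csf1, the macrophage growth factor, had 47.99 and 40.5 CPM with shNC and 106 and 106 CPM with shMyh9#2 (log2 fold change 1.27, SE 0.14, edgeR adjusted p = 1.9e-05). Ccl5, a chemokine for T cells, had 2.25 and 3.34 CPM with shNC and 14.4 and 12.3 CPM with shMyh9#2 (log2 fold change 2.24, SE 0.35, edgeR adjusted p = 0.00087). Both were robust, and in both the shMyh9#2 libraries lay more than 2 times as high as either shNC library.

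Of 24 interferon-stimulated genes tested, 17 had a fitted log2 fold change above 0 and the median was 0.46, but none passed as higher. The only call was Irf9, a subunit of the interferon-activated complex ISGF3, which fell by 0.78 (edgeR adjusted p = 0.043, and 0.25 without shMyh9#2 replicate 2). That call was 4.17% of the list, against 4.76% of all genes tested. For 4 of the 24 both libraries of the lower group held at most 3 counts. In the MHC class I list 0 of 16 tested genes were called by edgeR or by DESeq2, 0 had an unadjusted edgeR p below 0.05, and the median was 0.0052. Among 24 immediate early genes tested, 1 rose (Dusp4, a MAP kinase phosphatase, by 0.66) and 1 fell (Klf4, a Krüppel-like factor). The calls were 8.33% of the list, against 4.76% of all genes tested. Klf4 had 536 and 541 CPM with shNC and 373 and 367 CPM with shMyh9#2 (log2 fold change -0.54, SE 0.12, edgeR adjusted p = 0.011). Omission of 1 library raised the edgeR adjusted p to 0.29 for Dusp4 (without shMyh9#2 replicate 1) and 0.11 for Klf4 (without shMyh9#2 replicate 2).

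No clock gene was called by edgeR or DESeq2, and 1 had an unadjusted edgeR p below 0.05. The 21 tested had log2 fold changes from -0.51 to 0.46 and a median of -0.028. Arntl had 34.6 and 33.2 CPM with shNC and 32.3 and 24.2 CPM with shMyh9#2 (log2 fold change -0.26, SE 0.17, edgeR adjusted p = 0.48). In EV shNC cells it had 30.4 and 25.99 CPM, so the label WT-Bmal1 did not go with a called difference in Arntl between the shNC lines (log2 fold change of WT over EV 0.27, SE 0.18, edgeR adjusted p = 0.30). Whether transcripts of the WT-Bmal1 construct count toward Arntl is not given in the sources used here. Nr1d1 (Rev-erbα), a direct Bmal1 target, had 9.01 and 10.7 CPM with shNC and 9.93 and 10.2 CPM with shMyh9#2 (edgeR adjusted p = 0.98), and Dbp, another, had 18.4 and 25.7 CPM with shNC and 18.9 and 17.2 CPM with shMyh9#2 (edgeR adjusted p = 0.55). Nr1d1 and Dbp were chosen after their values were seen. Of 40 cell cycle genes 1 (2.5%) was called, Ccnd2 (cyclin D2), which rose by 0.33. Of 19 p53 targets 1 (5.26%) was called, Gdf15 (a stress cytokine), which fell by 1.43. Neither share is far from the 4.76% called of all genes tested. Among 24 ATF4 stress genes, Nupr1, a stress-induced chromatin protein, had 73.2 and 68.4 CPM with shNC and 35.1 and 32.4 CPM with shMyh9#2 (log2 fold change -1.07, SE 0.12, edgeR adjusted p = 3.7e-05) and was robust. Vldlr and Pck2 fell by 0.44 and 0.39, and Ddit3 (CHOP) rose by 0.65. Calls made up 16.7% of the ATF4 list, against 4.76% of all genes tested. Elovl6 and Sc5d, which rose by 0.57 and 0.58, were the 2 calls (6.67%) among 30 sterol and fatty acid synthesis genes. With a library left out the edgeR adjusted p rose to 0.20 for Ccnd2 (without shNC replicate 1), 0.31 for Gdf15 (without shMyh9#2 replicate 1), 0.24 for Vldlr (without shNC replicate 1), 0.28 for Pck2 (without shMyh9#2 replicate 2), 0.17 for Ddit3 (without shNC replicate 1), 0.23 for Elovl6 (without shNC replicate 2) and 0.18 for Sc5d (without shMyh9#2 replicate 2).

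**Figure D4:**
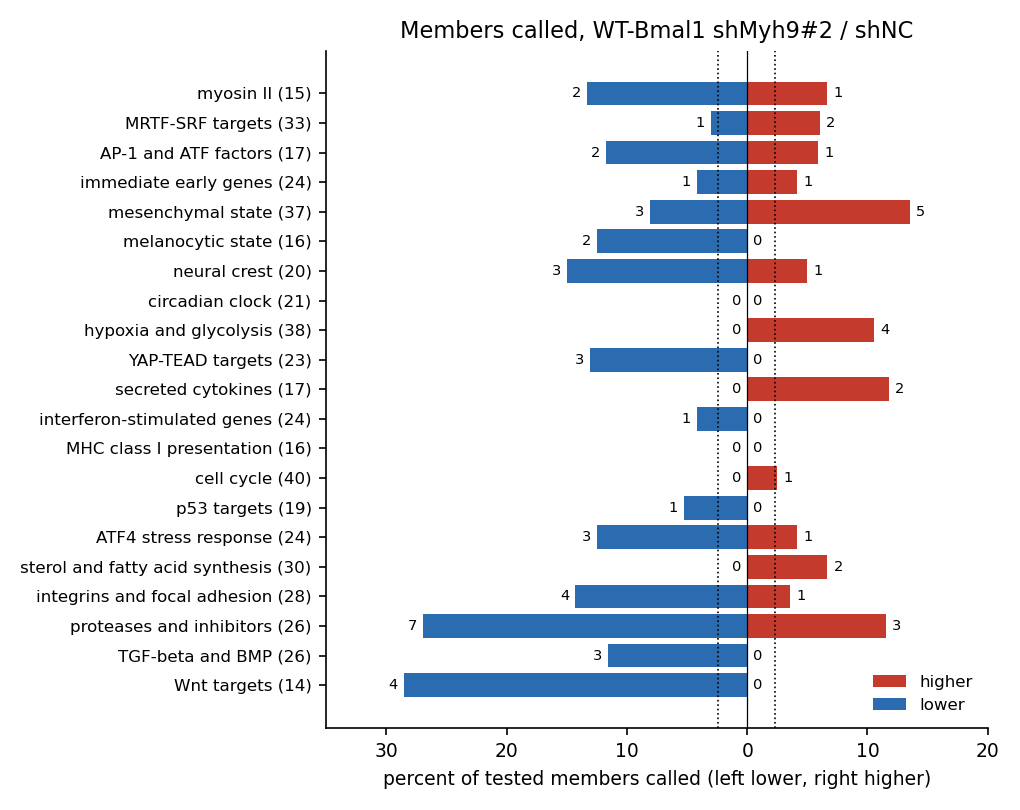
Percent of the tested members of 21 gene lists (number tested in brackets) called higher (red, right) or lower (blue, left) with shMyh9#2 in WT-Bmal1 cells; numbers at the bars are genes, and dotted lines mark the share of all genes called, 2.35% higher and 2.41% lower. Proteases and inhibitors have the most calls, 3 higher and 7 lower of 26.

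The most abundant called genes moved little. Lrrc17, a leucine-rich repeat protein, had 24606 and 27615 CPM with shNC and 35371 and 33641 CPM with shMyh9#2 (log2 fold change 0.40, SE 0.10, edgeR adjusted p = 0.029), the highest level of any called gene. S100a6 and Vps8 rose by 0.33 and 0.50. The ribosomal protein gene Rpl41, the elongation factor Eef2 and the tubulin Tubb5 fell by 0.50, 0.36 and 0.27. None of the 6 was robust. The highest edgeR adjusted p without 1 library was 0.24 for Lrrc17 (without shNC replicate 1), 0.28 for S100a6 (without shNC replicate 2), 0.11 for Vps8 (without shNC replicate 1), 0.22 for Rpl41 (without shNC replicate 2), 0.11 for Eef2 (without shMyh9#2 replicate 1) and 0.26 for Tubb5 (without shMyh9#2 replicate 2).

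The effect of the hairpin in WT cells differed from that in EV cells for many genes. The difference between the effects, which share no library, was tested directly. Of 14848 genes, 769 (5.18%) were called, 260 (1.75%) with a higher and 509 (3.43%) with a lower effect in WT cells. Leaving out 1 of the 8 libraries gave 312 to 550 calls, the fewest without EV shNC replicate 2, and 200 genes were called in all 8 such fits. Of the 349 genes that rose in WT cells, 91 were called higher and 7 lower in EV cells. Of the 358 that fell, 40 were called lower and 59 higher in EV cells. Over all genes, 4.2% were called higher and 2.46% lower in EV cells. Starting levels differed too. Of the 509 genes with a lower effect in WT cells, 438 were called higher in WT shNC than in EV shNC and 7 lower. Of the 260 with a higher effect, 216 were called lower there and 1 higher. Over all 14848 genes, 1732 were called higher and 1576 lower in WT shNC. The shNC libraries enter both comparisons with opposite sign, so these counts are not independent of the difference.

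Several genes that fell in WT cells rose in EV cells. Fstl1 had 13.8 and 15.8 CPM in EV shNC, 56.7 and 55.1 in EV shMyh9#2, 160.1 and 186 in WT shNC and 43.003 and 46.9 in WT shMyh9#2 (difference of effects -3.86, SE 0.18, edgeR adjusted p = 9.9e-10). Timp3 had 41.99 and 45.9 CPM in EV shNC, 76.1 and 70.8 in EV shMyh9#2, 256 and 297 in WT shNC and 95.4 and 94.3 in WT shMyh9#2 (difference -2.29, SE 0.15, edgeR adjusted p = 5.5e-08). Both were far apart between the lines with shNC and close with shMyh9#2. Klf4 had 101 and 93.5 CPM in EV shNC, 276 and 257 in EV shMyh9#2, 536 and 541 in WT shNC and 373 and 367 in WT shMyh9#2 (difference -1.999, SE 0.17, edgeR adjusted p = 9.5e-07). Nupr1 had 10.4 and 10.4 CPM in EV shNC, 25.02 and 25.5 in EV shMyh9#2, 73.2 and 68.4 in WT shNC and 35.1 and 32.4 in WT shMyh9#2 (difference -2.34, SE 0.19, edgeR adjusted p = 7.6e-07). In these 2 the order of the lines stayed and the gap narrowed. Pkp1, Ptgs1 and Tns1 also rose in EV cells, with differences of -2.79, -2.48 and -2.04, and Mef2c did so with a difference of -1.46. Tcf7l2 (-1.49) and Inhba (-1.28) differed in the same direction and had an edgeR adjusted p of 0.20 and 0.050 in EV cells. Tgm2 and Gdf15 had at most 3 counts in each EV shNC library, so no fold is given for EV cells. Tgm2 had 0.239 and 0.326 CPM in EV shNC and 1.41 and 2.55 CPM in EV shMyh9#2, and Gdf15 had 0.359 and 0.217 and 2.95 and 1.94 CPM. All of these differences were called in each of the 8 fits with a library left out.

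Col1a1 and Sox10 moved the same way in both lines. Col1a1 had 1.79 and 2.07 CPM in EV shNC, 17.5 and 23.7 in EV shMyh9#2, 47.6 and 47.5 in WT shNC and 107 and 114 in WT shMyh9#2. It rose in both lines, by 1.22 in WT and 3.40 in EV cells (difference -2.19, SE 0.23, edgeR adjusted p = 1.1e-05), and its level stayed higher in WT cells. Sox9 had 115 and 111 CPM in EV shNC and 290.1 and 293 CPM in EV shMyh9#2, a rise whose size differed from the effect in WT cells (difference -1.13, SE 0.15, edgeR adjusted p = 0.00015). Sox10 fell in both lines, by 1.48 in WT and 0.83 in EV cells (difference -0.65, edgeR adjusted p = 0.019). That difference was lost in 7 of 8 fits, with an adjusted p of 0.12 without WT shMyh9#2 replicate 1. Adgrl4, Tnfrsf9 and Eya1 rose in EV cells as well, to 3.98 and 4.12, 3.98 and 3.396 and 1.92 and 1.21 CPM from at most 3 counts per library with shNC, and the effects were not shown to differ (edgeR adjusted p = 0.88, 0.39 and 0.67).

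Other genes rose in WT cells with no rise past the threshold in EV cells. Tnc had 30.4 and 30.8 CPM in EV shNC, 36.7 and 39.9 in EV shMyh9#2, 14.98 and 14.4 in WT shNC and 64.3 and 77.1 in WT shMyh9#2 (difference 1.94, SE 0.21, edgeR adjusted p = 2.1e-05). Cers6, a ceramide synthase, had 22.6 and 16.6 CPM in EV shNC, 12.4 and 12.9 in EV shMyh9#2, 6.496 and 4.84 in WT shNC and 27.3 and 26.999 in WT shMyh9#2 (difference 2.90, SE 0.31, edgeR adjusted p = 1.6e-05). Mmp10 had 10.3 and 12.4 CPM in EV shNC, 5.65 and 6.43 in EV shMyh9#2, 6.23 and 5.18 in WT shNC and 18.4 and 18.1 in WT shMyh9#2 (difference 2.59, SE 0.39, edgeR adjusted p = 0.00067). In each, the level moved from below that of EV cells with shNC to above it with shMyh9#2. Epb41l4a and Cep126, both rarer, had differences of 2.95 and 2.87. These 5 differences were called in all 8 fits, but in WT cells alone the rise of Epb41l4a and Cep126 was not robust. When single libraries were left out, the edgeR adjusted p reached 0.085 for Epb41l4a (without shNC replicate 1) and 0.068 for Cep126 (without shNC replicate 2). Khdrbs3 differed by 2.58 (edgeR adjusted p = 0.046), but was lost in 7 of 8 fits, with an adjusted p of 0.22 without EV shNC replicate 1.

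Over all genes tested, 1.75% had a higher and 3.43% a lower effect in WT than in EV cells. By list, 7 of 30 sterol and fatty acid synthesis genes had a higher effect in WT cells and 0 a lower one. In EV cells 9 genes of the list fell, against 2.46% of all genes. Of 24 ATF4 stress genes, 4 had a lower effect in WT cells (Nupr1, Pck2, Vldlr and Nars) and 0 a higher one. In EV cells 12 of the 24 rose, against 4.2% of all genes. Of 33 MRTF-SRF targets tested, 5 had a lower effect in WT cells, namely Tgfb1i1 (-1.95), Pdlim7 (-0.77), Anxa3 (-0.69), Tpm2 and Fhl2, and 0 a higher one. Tpm2 and Fhl2 had at most 3 counts in each EV shNC library. Of 37 mesenchymal genes tested, 8 had a lower effect, among them Fn1 (fibronectin, -1.19) and Snai2 (Slug, -1.04), and 1 a higher one (Tnc). Lower effects were called in other lists too. TGF-β and BMP had 6 lower and 1 higher of 26, proteases 5 and 2 of 26, and YAP-TEAD 4 and 0 of 23. Hypoxia and glycolysis had 4 and 1 of 38, integrins 4 and 2 of 28, and Wnt 3 and 0 of 14. Immediate early genes had 1 lower and 3 higher of 24, and cell cycle genes 0 and 2 of 40. Nars, Tpm2, Fhl2, Tgfb1i1, Anxa3, Fn1 and Snai2 were named after their values were seen. Omission of 1 library raised the edgeR adjusted p to 0.064 for Nars (without WT shMyh9#2 replicate 2), 0.071 for Tpm2 (without EV shNC replicate 2), 0.52 for Fhl2 (without EV shMyh9#2 replicate 1) and 0.082 for Pdlim7 (without WT shMyh9#2 replicate 2).

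**Figure D5:**
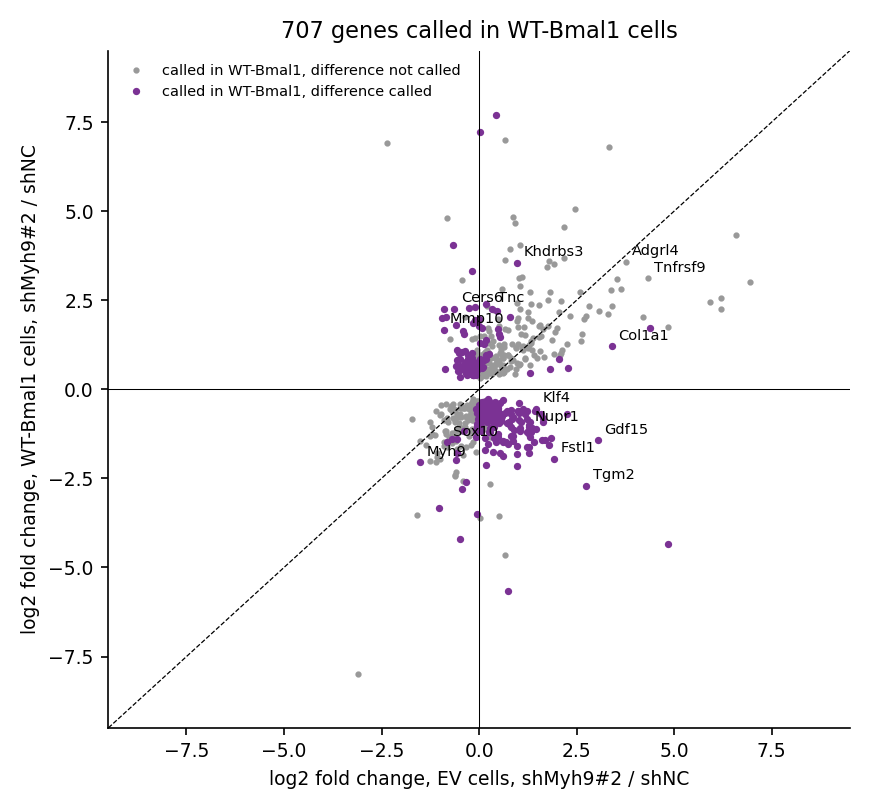
Log2 fold change of shMyh9#2 over shNC in WT-Bmal1 cells (y axis) and in EV cells (x axis) for the 707 genes called in WT-Bmal1 cells, which chose the points; the dashed line marks equal effects. Purple points are the genes whose difference between the lines was called, 108 of those that rose and 184 of those that fell in WT-Bmal1 cells, and grey points the rest.

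Against dHLH cells, few differences passed. The effect differed for 28 of 14848 genes (0.189%), 16 (0.108%) higher and 12 (0.0808%) lower in WT cells, while 1271 had an unadjusted p below 0.05 and DESeq2 called 68. Leaving out 1 of the 8 libraries gave 3 to 23 calls, with 3 calls both without WT shMyh9#2 replicate 1 and without dHLH shNC replicate 2. In dHLH cells themselves 83 genes were called with shMyh9#2, 0.296% of all genes higher and 0.263% lower. The dHLH shMyh9#2 libraries held 4918817 and 14699820 counts. Their chi-square per degree of freedom between replicates was 15.5, the highest of the 9 groups, against 6.41 for WT and 5.60 for EV shMyh9#2. A difference from dHLH cells that did not pass is thus not shown to be absent. Of the genes called in WT cells, 305 of the 349 higher and 311 of the 358 lower had the same sign in dHLH cells. Of these, 30 and 30 were called there, and 0 genes were called the opposite way. In EV cells, 232 of the 349 and 157 of the 358 had the same sign as in WT cells. The share with the same sign over all genes tested was not counted. The median log2 fold change of these genes in dHLH cells was 0.35 for the higher and -0.29 for the lower ones.

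Sox10 fell in dHLH cells too, from 22.03 and 25.6 to 13.98 and 11.9 CPM, and Tnc rose from 34.4 and 34.2 to 90.7 and 74.8 CPM. For neither was the difference from WT cells called (edgeR adjusted p = 0.31 and 0.060). Adgrl4 did differ. It had 51.2 and 58.9 CPM in dHLH shNC and 96.8 and 73.1 in dHLH shMyh9#2 (difference 2.96, SE 0.31, edgeR adjusted p = 0.00043), and was called in all 8 fits with a library left out. Cacnb2 (2.79), Fam129a (2.51), Tnfrsf9 (2.51) and Col1a1 (0.83) had a higher effect in WT cells. Plpp2 (-2.78), Pou3f1 (-2.33), Eid2 (-3.66), Fstl1 (-1.05), Pkp1 (-1.02) and Timp3 (-0.82) had a lower one. With a library left out the edgeR adjusted p rose to 0.10 for Cacnb2 (without WT shMyh9#2 replicate 1), 0.13 for Fam129a (without dHLH shNC replicate 1), 0.26 for Tnfrsf9 (without dHLH shNC replicate 2), 0.22 for Col1a1 (without dHLH shNC replicate 1), 0.17 for Plpp2 (without dHLH shMyh9#2 replicate 2), 0.30 for Pou3f1 (without dHLH shNC replicate 1), 0.18 for Eid2 (without dHLH shMyh9#2 replicate 2), 0.10 for Fstl1 (without WT shMyh9#2 replicate 1), 0.30 for Pkp1 (without WT shMyh9#2 replicate 2) and 0.16 for Timp3 (without dHLH shNC replicate 1).

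The hairpin shMyh9#4, which left more Myh9, gave 35 calls against the same shNC libraries in WT cells, 13 higher (0.0876%) and 22 lower (0.148%). At an unadjusted edgeR p below 0.05 there were 1794 genes, against 2721 with shMyh9#2. The WT shMyh9#4 libraries held 5160989 and 10308568 counts. Their chi-square per degree of freedom between replicates was 11.2, against 6.41 for WT shMyh9#2. An effect of shMyh9#4 that did not pass is thus not shown to be absent. Compared directly, the hairpins differed in 894 of 14848 genes (6.02%), 477 (3.21%) higher and 417 (2.81%) lower with shMyh9#2. The count was 265 to 636 with a library left out, the fewest without WT shMyh9#2 replicate 2, and 179 genes were called in all 4 such fits. Fstl1 had 210.3 and 192 CPM with shMyh9#4 (shMyh9#2 against shMyh9#4, log2 fold change -2.16, SE 0.12, edgeR adjusted p = 2e-08). Timp3 had 316 and 309 CPM (log2 fold change -1.72, SE 0.10, edgeR adjusted p = 2.4e-08). Both lay above their shNC libraries. Tnc had 20.1 and 16.95 CPM (log2 fold change 1.95, SE 0.15, edgeR adjusted p = 1e-06), Sox10 68.8 and 67.2 CPM (log2 fold change -0.97, SE 0.11, edgeR adjusted p = 6.7e-05) and Adgrl4 9.75 and 8.62 CPM (log2 fold change 1.51, SE 0.21, edgeR adjusted p = 0.00033). These 3 lay between their shNC and shMyh9#2 levels. Tchh (trichohyalin, 2.85) and Ptges (prostaglandin E synthase, 2.64) were higher with shMyh9#2, and Gdf15 (-2.34) was lower. All of these were called in each of the 4 fits. Against shNC, Ptges was called higher with shMyh9#2 (edgeR adjusted p = 0.048) and was not robust. The highest edgeR adjusted p without 1 library was 0.31 for Ptges (without shNC replicate 1). Since the hairpins left different amounts of Myh9, a smaller effect and an effect of the hairpin sequence on other transcripts cannot be told apart.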

How the data were processed

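RNA was taken from YUMM2.1 mouse melanoma cells (100 ng DNase-treated RNA per library) for QuantSeq 3′ mRNA sequencing with single reads of 75 bp. The authors aligned reads to mm10 with bowtie2 and deposited RSEM estimated counts per Ensembl gene for all 40 libraries in 1 table, with no normalization. Which Ensembl release was used, and whether counting used strand, is not given in the sources used here. The submitters' processing notes also name DESeq2, which the study used at a false discovery rate of 5%.

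Estimated counts were rounded to whole numbers and fitted with edgeR 4.0.16 (limma 3.58.1, R 4.3.3) as 9 groups of 2 over the 18 hairpin libraries, with TMM scaling, filterByExpr and the quasi-likelihood test, and p-values were adjusted by Benjamini-Hochberg over 14848 genes (called below 0.05). Differences between lines were contrasts of the same fit. Each SE was worked out from the test, as the absolute log2 fold change divided by the square root of its F statistic. Replicates of a group differed by more than sampling noise. Totals were 3643332 to 22970049 counts over the 40 libraries, and intervals cover counting error only. Gene positions are from GENCODE M21 (GRCm38), which named 99.6% of identifiers. Alternatives were DESeq2 1.42.0 and its size factors, other filters, other sets of libraries, a replicate block, a minimum fold change, each library left out, and thinning. The scripts were tested on simulated data.

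Named genes were 18 fixed regulators, up to 12 genes a direction with the largest called fold change (protein-coding, at least 5 CPM in the higher group, no overlap), up to 3 called members a direction of each list, 3 genes a direction for each of the 3 other comparisons and the 3 most abundant called genes a direction. The comparison, the lists and the members were chosen with earlier results of these data known. Some genes that the rule names are not reported here.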

Additional observations from a re-analysis of the deposited data

Results flagged for a closer look

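Of the genes that the naming rule chose and that are reported here, 45 had an effect of shMyh9#2 that differed between WT and EV cells and 11 one that differed between WT and dHLH cells, each by the edgeR test of the difference itself. Values in brackets are that difference in log2 fold change, WT minus the other line. Among the genes called in all 8 fits with a library left out, the effect was lower in WT than in EV cells for Sox9 (-1.13), Fstl1 (-3.86), Ptgs1 (-2.48), Pkp1 (-2.79), Cald1 (-0.67), Klf4 (-1.999), Col1a1 (-2.19), Mef2c (-1.46), Nupr1 (-2.34), Vldlr (-0.91), Pck2 (-1.42), Tns1 (-2.04), Timp3 (-2.29), Inhba (-1.28), Tcf7l2 (-1.49) and Tcf7l1 (-1.28). It was higher in WT cells for Epb41l4a (2.95), Cers6 (2.90), Cep126 (2.87), Tnc (1.94), Sc5d (1.05), Elovl6 (1.44) and Mmp10 (2.59).

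The difference from EV cells was called in some of the 8 fits, with a lower effect in WT cells, for Sox10 (-0.65), Eid2 (-2.31), Rnf144a (-2.26), Wnt5a (-2.31), Moxd1 (-1.39), Pdlim7 (-0.77), Ajuba (-1.001), Eef2 (-0.44) and Tubb5 (-0.49). It was higher for Fosl1 (1.40), Khdrbs3 (2.58), Pfkp (0.78), Serpine2 (0.91), Lrrc17 (0.56) and Vps8 (0.72), likewise in some fits. In none of the 8 fits was the call kept for Myh9 (-0.52), Junb (-1.08), Jund (-0.92) and Ltbp3 (-0.63). Fosl1, Jund, Sox9 and Camk1g were not called in WT cells themselves. For Tgm2 (-5.45), Gdf15 (-4.46) and Camk1g (-4.11), each EV shNC library held at most 3 counts, so the fitted size of the difference is no bound. Camk1g had 2.18 and 3.27 CPM in EV shMyh9#2, 6.23 and 4.03 CPM in WT shNC and 11.1 and 11.96 CPM in WT shMyh9#2.

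Against dHLH cells the effect in WT cells was higher for Adgrl4 (2.96), Cacnb2 (2.79), Tnfrsf9 (2.51), Fam129a (2.51) and Col1a1 (0.83), and lower for Eid2 (-3.66), Fstl1 (-1.05), Pkp1 (-1.02), Plpp2 (-2.78), Pou3f1 (-2.33) and Timp3 (-0.82). Adgrl4 was called in all 8 fits with a library left out, and the other 10 were each lost in at least 4 of them.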

How the results depend on the processing

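Counts of called genes moved most with the samples and genes in the fit. For shMyh9#2 against shNC in WT cells (707), other settings gave 617 to 993, except 284 with a minimum log2 fold change of 1 and 222 to 303 with a library left out. For the difference from EV cells (769, 260 higher and 509 lower), fitting the groups compared alone gave 1659 (796 higher and 863 lower), no filter on low counts gave 1313 (625 and 688), a minimum difference of 1 gave 434, and a library left out gave 312 to 550. For the difference from dHLH cells (28, 16 higher and 12 lower), DESeq2 gave 68 (31 and 37), no filter 141 (73 and 68), the groups compared alone 18 (14 and 4), and a library left out 3 to 23. For shMyh9#2 against shMyh9#4 (894, 477 higher and 417 lower), the groups compared alone gave 478, a minimum of 1 gave 270 (115 higher and 155 lower), and a library left out 265 to 636. The other settings stayed within 1.5 times the main count. Fewer genes qualify under a minimum fold change, and more are tested without a filter. The cause of the other shifts was not tested.

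The replicate block gave 634, 690, 25 and 833 calls for these comparisons. Deviations of same-numbered libraries correlated at -0.14 to 0.20 between groups and at 0.050 between WT shNC and WT shMyh9#2. Weak correlation over all genes cannot settle whether replicate numbers pair the libraries. A group of 2 has too few libraries for a permutation test below p = 0.333 (two-sided, exact).

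Without 1 library the log2 fold change of Mitf ran from -0.014 (without WT shNC replicate 2) to 0.20, that of Srf from -0.18 to 0.072 (without WT shMyh9#2 replicate 1) and that of Jun from -0.057 (without WT shNC replicate 2) to 0.14. Each changed sign, and none was called. The log2 fold change of Myh9 stayed between -2.07 and -2.001 in all settings. Over the 105 other named genes and every setting except the minimum fold change, which was applied to counts only, 1021 values kept their direction and side of the threshold, 219 dropped below it, 13 rose past it and 3 changed sign. Thinning deeper libraries to the total of WT shNC replicate 1, chosen after seeing the data, left 6 shallower libraries as they were and ended 9 calls among the named genes and added 1. Rare genes are limited by depth, since 1 count was worth up to 0.133 CPM.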
